A study of Mus musculus with 4 samples.

Results

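The genes described here encode peptide hormones of the enteroendocrine cells of the gut (Cck, Gcg, Sct, Gip, Pyy, Nts, Sst, Ghrl and Insl5), together with Chga, which encodes chromogranin A of their secretory granules. These 10 genes were taken by symbol from 20716 condensed genes, each a set of merged RefSeq exon blocks of the mm9 mouse genome that deposited junctions link. Reads were obtained from 4 libraries of frozen total tissue of C57BL/6 mice aged 9 to 10 weeks, 1 from small intestine and 1 from colon in each of 2 protocols. In the cDNA fragmented protocol, polyadenylated RNA was copied by SMART cDNA synthesis, which does not keep the strand, whereas the rRNA-depleted libraries were made with the strand-keeping SOLiD Whole Transcriptome Analysis Kit. The labels give neither genotype changes nor treatment for any library, the methods name jejunum and distal colon, and how many mice went into each library is not given in the sources used here. With 1 library per tissue and protocol there is no replicate error within a pair: unless limma is named, all intervals are 95% intervals of counting error only, and reads copied during amplification are not independent molecules.

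Enteroendocrine cells are scattered singly through the gut epithelium and release hormones to the blood and to nearby nerves when nutrients arrive. Each hormone is made as a longer precursor, which prohormone convertases cut, most often beside pairs of the basic residues lysine and arginine, and which is kept in dense-core granules. The hormones a cell makes depend on its place along the gut: cells with GIP, cholecystokinin, secretin and ghrelin are known mainly from stomach and upper small intestine, and L cells, with the glucagon-like peptides, peptide YY and, in the colon, INSL5, mainly from ileum and large intestine.

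The coding exons below are shown because they code for hormones whose levels differed between the tissues: exon blocks 3, 4 and 5 of Gcg, which hold glucagon, GLP-1 and GLP-2 in turn, and the exon block with the most coding bases in each of the 4 members that passed the 3-fold rule in both protocols. Gcg passed that rule in the rRNA-depleted pair only. They are read from mm9 on the strand of the gene, 5′ to 3′, and capitals mark in-frame pairs of codons for lysine (AAA, AAG) or arginine (CGN, AGA, AGG) on that strand.
Gcg exon block 3, chr2:62316612-62316773, minus strand: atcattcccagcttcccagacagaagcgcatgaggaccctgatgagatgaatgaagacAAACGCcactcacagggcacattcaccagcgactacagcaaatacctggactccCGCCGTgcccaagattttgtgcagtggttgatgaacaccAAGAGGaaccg
Gcg exon block 4, chr2:62314881-62315018, minus strand: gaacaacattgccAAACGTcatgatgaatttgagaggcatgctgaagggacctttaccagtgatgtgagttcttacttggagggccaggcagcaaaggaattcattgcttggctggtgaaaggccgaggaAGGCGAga
Gcg exon block 5, chr2:62313773-62313916, minus strand: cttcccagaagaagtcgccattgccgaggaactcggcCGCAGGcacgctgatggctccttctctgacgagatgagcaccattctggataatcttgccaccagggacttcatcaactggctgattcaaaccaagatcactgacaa
Gip exon block 3, chr11:95887938-95888084, plus strand: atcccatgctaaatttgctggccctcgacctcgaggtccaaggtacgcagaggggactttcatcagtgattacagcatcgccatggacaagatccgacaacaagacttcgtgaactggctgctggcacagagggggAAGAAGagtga
Ghrl exon block 3, chr6:113669104-113669220, minus strand: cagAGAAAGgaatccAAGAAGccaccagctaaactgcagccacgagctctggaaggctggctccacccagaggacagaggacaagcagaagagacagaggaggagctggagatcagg
Pyy exon block 2, chr11:101968479-101968666, minus strand: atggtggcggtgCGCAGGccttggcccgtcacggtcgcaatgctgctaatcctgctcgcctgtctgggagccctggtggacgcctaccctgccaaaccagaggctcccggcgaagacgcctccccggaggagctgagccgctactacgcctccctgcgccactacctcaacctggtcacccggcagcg
Insl5 exon block 2, coding part, chr4:102690722-102690951, minus strand: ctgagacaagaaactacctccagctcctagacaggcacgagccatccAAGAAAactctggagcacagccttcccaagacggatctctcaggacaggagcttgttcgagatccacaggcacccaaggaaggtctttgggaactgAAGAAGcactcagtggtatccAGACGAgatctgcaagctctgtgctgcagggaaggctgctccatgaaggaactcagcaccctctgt
Such a pair of codons was found in each of these 7 exons, and in 44.5% of 121609 coding exons of 100 to 250 bases in the GENCODE M1 annotation, so a match of letters is not in itself a cut site. In Gcg the pairs of exon block 3 lie before, inside and behind glucagon, whereas the pair in Pyy lies a few codons behind the start codon.

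The make-up of the hormone transcripts differed between the tissues (chart of shares). Levels are given as RPKM, reads per kilobase of exon and per 1000000 uniquely placed reads. In the cDNA fragmented small intestine library the 9 hormone genes summed to 461 RPKM, of which Sct gave 26.2%, Nts 18.9%, Gip 18.4% and Gcg 17.2%. In the cDNA fragmented colon library they summed to 752 RPKM, with 33.6% from Sct, 27.3% from Gcg and 23.4% from Pyy. The sums of the rRNA-depleted pair were 120 RPKM in small intestine and 439 RPKM in colon. Sct (20.2%) and Sst (18.5%) led in that small intestine library, and Insl5 (34.96%), Gcg (23.1%) and Pyy (20.1%) led in that colon library. The summed level of the 9 genes in the colon libraries thus came mainly from genes known from L cells, beside Sct at 33.6% (cDNA fragmented) and 7.74% (rRNA-depleted). Which cells these transcripts came from was not tested. No gene made up more than 26.2% in either small intestine library. In such bulk tissue, fewer cells of a type and less RNA per cell cannot be told apart.

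**Figure D1:**
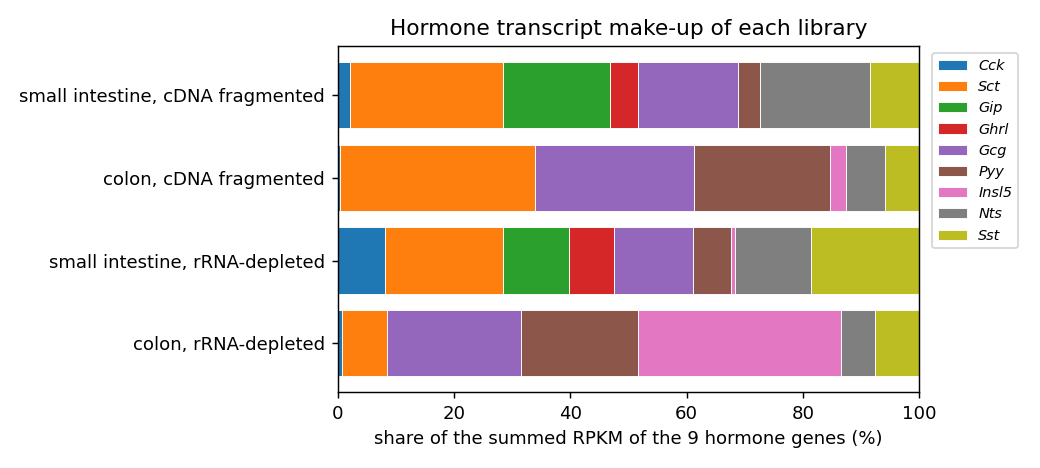
Share of each of the 9 hormone genes in their summed RPKM (x axis, percent) in the 4 libraries (bars). Gip and Ghrl take a visible share in the small intestine bars, and Pyy and Insl5 take larger shares in the colon bars.

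A gene was set as higher in a tissue when its RPKM was at least 3 times that in the other tissue plus 1 RPKM, provided that its own RPKM exceeded 0.01 and its reads began at 2 or more start points, that is, distinct positions and strands. In the cDNA fragmented pair Gip and Ghrl passed for small intestine, where 2.73% of the 16377 genes present did so, and Pyy and Insl5 passed for colon, against 3.21% of all genes. In the rRNA-depleted pair Gip and Ghrl passed again for small intestine (3.7% of 14990 genes), and Gcg, Pyy and Insl5 passed for colon (6.54%). All 10 members were present in at least 1 library of each pair. After 0.1 RPKM had been added, the median log2 ratio of small intestine to colon over the members was -0.52 in the cDNA fragmented pair, against -0.36 over all genes present, and -0.63 against -0.42 in the rRNA-depleted pair. A limma fit of tissue over the 4 libraries with protocol as block, on log2(RPKM + 1), has 1 residual degree of freedom, the disagreement between the pairs. Its moderated error rests mostly on variance borrowed from genes of like level, worth 9.64 prior degrees of freedom, so its p-values assume that a gene varies like these. The own standard deviation exceeded the moderated one for Gip (1.28 against 0.590), Insl5 (1.02 against 0.511), Gcg (0.608 against 0.380) and Nts (0.719 against 0.396). It lay below for the other members. Of 16606 genes the fit called 3.05% higher in small intestine and 5.46% higher in colon at an adjusted p under 0.05. The log2 effect of small intestine over colon was 5.15 for Gip (limma, adjusted p = 0.000298) and 3.48 for Ghrl (adjusted p = 0.000737), with both pairs in that direction. It was -5.47 for Insl5 (limma, adjusted p = 6.53e-05), -3.28 for Pyy (adjusted p = 0.000111) and -1.97 for Gcg (adjusted p = 0.00867), again with both pairs alike. Cck, at 1.53 (limma, adjusted p = 0.0563), Sct, at -0.76 (0.211), Chga, at -0.87 (0.173), Sst, at -0.39 (0.529), and Nts, at 0.09 (0.928), missed that threshold. With each gene's own error on 1 degree of freedom in place of the moderated one, no member and none of the 16606 genes reached an adjusted p under 0.05. At an unadjusted p under 0.05 there were 8.42% of genes, among them Pyy and Ghrl of the members. With 0.1 RPKM added instead of 1, these members were Pyy and Insl5, beside 8.79% of genes. The own standard deviation then exceeded the moderated one for Ghrl (1.05 against 0.669) and lay below it for Insl5 (0.0774 against 0.528). The log2 effects became 8.42 for Gip, 5.51 for Ghrl and -7.63 for Insl5. Just under the 3-fold rule lay Cck, with a ratio to the other tissue plus 1 RPKM of 2.88 and 2.39, and Gcg of the cDNA fragmented pair, with 2.56 for colon. The lowest ratio that passed was 5.91, that of Gcg in the rRNA-depleted pair.

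**Figure D2:**
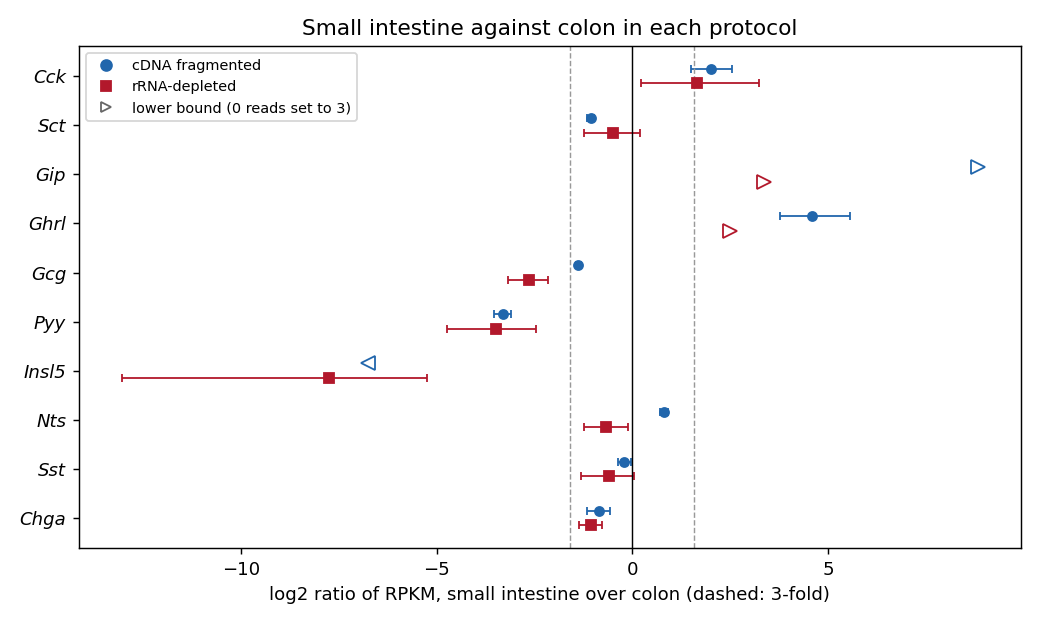
Log2 ratio of RPKM in small intestine over colon (x axis) for each gene in the cDNA fragmented (circles) and rRNA-depleted (squares) pairs, with 95% counting intervals. Open triangles are bounds against 3 reads where 1 tissue had no read, without the counting error of the other tissue. Gip and Ghrl lie far to the right and Pyy and Insl5 far to the left in both protocols, and Nts lies on opposite sides.

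Among the hormones of the upper gut, Gip (chr11:95885859-95892142, 6 exon blocks), the incretin of K cells, was seen in small intestine and in neither colon library. It had 1238 reads in the cDNA fragmented small intestine library, 0 in that of colon, 18 in the rRNA-depleted small intestine library and 0 in that of colon. These are 84.8 RPKM (80.2 to 89.7) and 13.6 RPKM (8.08 to 21.5) in small intestine. Set against 3 reads, the count that a finding of 0 still allows, Gip was 455-fold and 10.3-fold higher in small intestine. Such bounds leave out the counting error of the tissue with reads, so a smaller difference is possible. The former bound, 8.83 on the log2 scale, became 7.61 by start points. The reads lay on all 6 exon blocks in the cDNA fragmented library, with 371 on the exon shown above.

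Ghrl (chr6:113666113-113669874, 5 exon blocks) encodes ghrelin, the hunger hormone, which is known best from the stomach. It had 264 reads in the cDNA fragmented small intestine library and 12 in that of colon, or 22.3 RPKM against 0.918, which is 24.3-fold higher in small intestine (13.7 to 47.6). The counts of the rRNA-depleted pair were 10 and 0, which is 5.70-fold when set against 3 reads. Of the 10 reads, 6 were on the strand of Ghrl and 4 on the other strand, at 3 start points in 3 exon blocks, while 98.4% of reads of all genes in that library and all reads of the other members in the rRNA-depleted pair were sense. On the sense strand only, the bound fell from 2.51 to 1.77 on the log2 scale, and Ghrl still passed the rule. The exon shown above, which holds the latter part of ghrelin, had 101, 4, 3 and 0 reads in the order of small intestine and colon, cDNA fragmented, then small intestine and colon, rRNA-depleted. The octanoyl transferase of ghrelin, Mboat4, had 15, 22, 1 and 0 reads in that order. Markers of the stomach, the main source of ghrelin, numbered 11. In the cDNA fragmented pair 7 had no read in small intestine and 3 had none in colon. In each rRNA-depleted library 8 had none. Summed levels were 3.30 and 8.18 RPKM, then 18.1 and 3.72 RPKM. Tff2 passed the 3-fold rule for colon in the cDNA fragmented pair and for small intestine in the rRNA-depleted pair. Gast had at most 1 read in any library, and Tff1, Atp4b and Pgc had none. Gkn3 had 53 and 46 in the cDNA fragmented pair and 1 and 0 in the rRNA-depleted pair. Tff2 had 1 and 53, then 20 and 7, and Atp4a had 6 and 27, then 0 and 2. Counts of Gif and Muc5ac, also in that list, are not reported here. Gkn1 and Gkn2 had 33 and 11 reads in the cDNA fragmented colon library and 0 in the others.

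Cck (chr9:121398943-121404780, 3 exon blocks), whose product empties the gall bladder and slows the stomach, was also higher in small intestine without passing the rule. It had 147 and 40 reads in the cDNA fragmented pair, 9.94 against 2.45 RPKM, a 4.05-fold difference (2.84 to 5.90). With 13 and 7 reads in the rRNA-depleted pair the difference was 3.17-fold (1.18 to 9.39), at 9.71 against 3.06 RPKM. That log2 ratio of small intestine to colon, 1.67, became 1.14 (-0.46 to 2.80) by start points and 1.57 (-0.79 to 4.26) with up to 1 mismatch, intervals that include equal levels. Under median-of-ratios scaling it was 1.95 (0.52 to 3.52). The ratio of the cDNA fragmented pair, 2.02, became 1.04 under scaling to a list of general epithelial genes and 2.09 under the same scaling without Krt20. This keratin gene held 326537 of the reads of that list in small intestine and 119806 in colon, and without it that scaling moved the levels of the cDNA fragmented pair by -0.07 instead of 0.98 on the log2 scale. The ratio of the rRNA-depleted pair was 1.96 (0.53 to 3.53) under that scaling. Without Krt20 it was 2.15 (0.72 to 3.72) and passed the rule. Cck was the hormone gene whose level changed least between protocols, with ratios of rRNA-depleted to cDNA fragmented level of 0.977 (0.508 to 1.72) in small intestine and 1.25 (0.472 to 2.81) in colon.

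Sct (chr7:148464237-148465030, 4 exon blocks), secretin, which drives bicarbonate secretion from the pancreas, ran against the other hormones of the upper gut, since its level was higher in the colon library. It had 1379 reads in small intestine and 3172 in colon of the cDNA fragmented pair, or 121 RPKM (115 to 128) against 252 (244 to 261), 2.09-fold higher in colon (1.96 to 2.22). That difference, a log2 ratio of small intestine to colon of -1.06, was -0.16 (-0.33 to 0.01) by start points and -2.04 under scaling to the epithelial list, or -0.99 without Krt20. Start points have a ceiling: a whole read fits into the Sct exons at 371 positions per strand, and 502 and 587 start points were used. The part of this ceiling in the smaller difference was not tested. Sct had 25 and 60 reads in the rRNA-depleted pair, 24.2 and 34.0 RPKM, and the interval of the 1.40-fold difference ran from 0.867 to 2.34. In the rRNA-depleted colon library 21 of the 60 reads began at 1 start point, and counted by start points (19 in small intestine, 25 in colon) the log2 ratio of small intestine to colon turned to 0.38. Sct had the highest level of the members in both cDNA fragmented libraries.

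**Figure D3:**
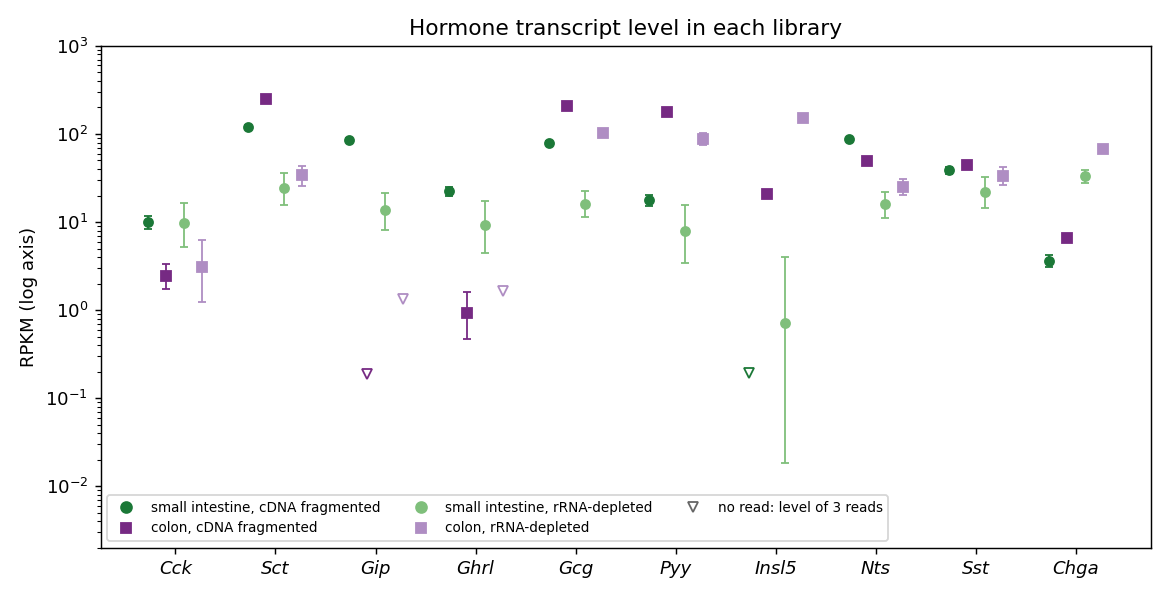
RPKM (y axis, log scale) of the 10 genes in the 4 libraries, with exact Poisson 95% intervals, and open triangles at the level of 3 reads where a library had none. Insl5 and Chga stand higher in the rRNA-depleted than in the cDNA fragmented libraries in which they have reads, whereas Sct, Gcg, Gip and Nts stand lower.

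The transcripts of genes known from L cells were higher in colon. Gcg (chr2:62312587-62321710, 6 exon blocks) encodes proglucagon, the precursor of GLP-1 and GLP-2 in the gut. It had 1947 reads in small intestine and 5561 in colon of the cDNA fragmented pair, 79.4 RPKM (75.9 to 82.98) against 206 (200.2 to 211), 2.59-fold higher in colon (2.46 to 2.73). As a log2 ratio of small intestine to colon this is -1.37, which became -0.25 by start points and -2.35, past the 3-fold rule, under scaling to the epithelial list, a call that rested on Krt20, since without it the ratio was -1.30 and did not pass. Start points numbered 987 and 1228 in that pair, and a whole read fits into the Gcg exons at 887 positions per strand. The part of this ceiling in the smaller ratio was not tested. In the rRNA-depleted pair the counts were 36 and 386 and the levels 16.2 (11.4 to 22.4) and 102 RPKM (91.8 to 112), 6.27-fold higher (4.45 to 9.09). That log2 ratio, -2.65, became -1.73 (-2.42 to -1.09) by start points, still past the rule. The intervals of these differences in reads do not overlap, and protocol and mice cannot be told apart between the pairs.

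The 3 hormone exons of Gcg printed above moved alike. The glucagon exon had 430 reads in small intestine and 1520 in colon of the cDNA fragmented pair, 3.20-fold per 1000000 reads (2.88 to 3.58). The GLP-1 exon had 320 and 1080, 3.06-fold (2.70 to 3.48), and the GLP-2 exon had 251 and 1002, 3.62-fold (3.15 to 4.17). The last exon block, nearly all untranslated, had 777 and 1488 reads in that pair and 21 and 202 in the rRNA-depleted pair. The last 500 exonic bases of Gcg held 45.5% of its reads in small intestine and 34.6% in colon of the cDNA fragmented pair. In these bases alone the log2 ratio of small intestine to colon was -0.98 (-1.09 to -0.86) there and -2.59 in the rRNA-depleted pair. With 8 and 72, 2 and 35, and 3 and 58 reads in the rRNA-depleted pair, the differences of the 3 exons were 5.27-fold (2.53 to 12.7), 10.2-fold (2.63 to 87.9) and 11.3-fold (3.68 to 56.5), with intervals that overlap. The transcript holds all 3 hormones, so these counts do not tell which of them a cell releases.

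Pyy (chr11:101967991-101969090, 4 exon blocks) encodes peptide YY, which slows gut transit and lowers food intake. It had 199 reads in small intestine and 2168 in colon of the cDNA fragmented pair, 17.8 RPKM (15.4 to 20.4) against 176 (168 to 183), 9.88-fold higher in colon (8.54 to 11.5). With 8 and 153 reads in the rRNA-depleted pair the levels were 7.89 (3.41 to 15.6) and 88.3 RPKM (74.9 to 103), 11.2-fold (5.54 to 26.4), an interval that holds the fold of the other pair. Of these reads, 4 of the 8 and 35 of the 153 began at 1 start point. The log2 ratios of small intestine to colon, -3.30 and -3.48, became -1.70 and -2.75 (-4.68 to -1.30) by start points and -4.29 and -3.19 under scaling to the epithelial list, or -3.23 and -3.00 without Krt20, all of them past the rule. In the cDNA fragmented colon library 540 start points were used, where a whole read fits into the Pyy exons at 362 positions per strand. The level of Pyy relative to Gcg was 0.224 (0.193 to 0.259) in small intestine and 0.854 (0.812 to 0.898) in colon of the cDNA fragmented pair. The same ratio in the rRNA-depleted pair was 0.487 (0.195 to 1.07) and 0.868 (0.715 to 1.05), an order that the counting intervals do not separate. The exon shown above held 747 of the 2168 reads of the cDNA fragmented colon library.

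Insl5 (chr4:102690478-102699333, 2 exon blocks), an insulin-like peptide of colonic L cells, was a colon transcript in both protocols. It had 0 reads in small intestine and 354 in colon of the cDNA fragmented pair, 107-fold higher in colon when set against 3 reads. In the rRNA-depleted pair it had 1 and 366 reads, a ratio of 214 with an interval from 38.2 to 8482. By start points the latter, a log2 ratio of small intestine to colon of -7.74, became -5.95 (-11.27 to -3.44). The levels in colon were 20.8 RPKM (18.7 to 23.1) and 154 RPKM (138 to 170), so Insl5 was 0.101 times the level of Gcg in the cDNA fragmented colon library (0.0908 to 0.113) and 1.51 times it in the rRNA-depleted one (1.31 to 1.75). In the rRNA-depleted colon library 58 of the 366 reads began at 1 start point, and 106 start points were used, against 269 for the 354 reads of the cDNA fragmented colon library. The coding exon block shown above, with its untranslated end, held 306 and 319 of the reads in colon. The receptor of INSL5, Rxfp4, had 12 reads in the cDNA fragmented colon library, 1 in the rRNA-depleted one and 0 in either small intestine library.

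Nts (chr10:101944390-101953052, 4 exon blocks), neurotensin of the N cells, had level ratios on opposite sides in the 2 protocols under the scaling used. It had 2318 reads in small intestine and 1451 in colon of the cDNA fragmented pair, 87.4 RPKM (83.8 to 91.0) against 49.6 (47.1 to 52.2), 1.76-fold higher in small intestine (1.65 to 1.88). In the rRNA-depleted pair it had 38 and 103 reads, 15.8 RPKM (11.2 to 21.7) against 25.1 (20.5 to 30.4), 1.59-fold higher in colon (1.08 to 2.37). Neither difference passed the 3-fold rule, and both counting intervals leave out equal levels. Under scaling to the epithelial list the log2 ratio of small intestine to colon was below 0 in both pairs, at -0.16 and -0.37, but without Krt20 it was 0.89 and -0.18, again on opposite sides. The interval of the rRNA-depleted pair included 0 under that scaling with and without Krt20, under median-of-ratios scaling (-0.96 to 0.17), by start points and in the last 500 bases. Against Gcg, the order of the tissues was alike: the level of Nts was 1.10 times that of Gcg in small intestine (1.04 to 1.17) and 0.241 times in colon (0.228 to 0.256) of the cDNA fragmented pair, and 0.976 (0.602 to 1.58) and 0.247 (0.197 to 0.307) in the rRNA-depleted pair. Gcg itself was 2.59-fold and 6.27-fold higher in colon, which enters these ratios, so they do not settle the direction of Nts.

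The reads of Nts lay less often toward the 3′ end of the transcript than those of most genes of like length (plot of read positions). Of 1180 exonic bases, the last 500 held 14.8% of the Nts reads in small intestine (13.5% to 16.3%, by the Wilson method) and 7.03% in colon (5.82% to 8.46%) by cDNA fragmentation, and 23.7% (13.0% to 39.2%) and 20.4% (13.7% to 29.2%) in the rRNA-depleted pair. Over all genes of 1000 to 1400 exonic bases with at least 50 reads, the median share was 50.5% and 50.2% in the cDNA fragmented pair, and 43.8% and 43.7% in the rRNA-depleted pair. A share as low as that of Nts was found in 39 of 875 genes in small intestine and 29 of 987 in colon by cDNA fragmentation, and in 40 of 267 and 35 of 506 in the rRNA-depleted pair. With 38 reads in the rRNA-depleted small intestine library, Nts itself missed the cut of 50 reads there. In these last 500 bases alone the log2 ratio of small intestine to colon was 1.90 in the cDNA fragmented pair, past the 3-fold rule, and -0.45 in the rRNA-depleted pair.

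**Figure D4:**
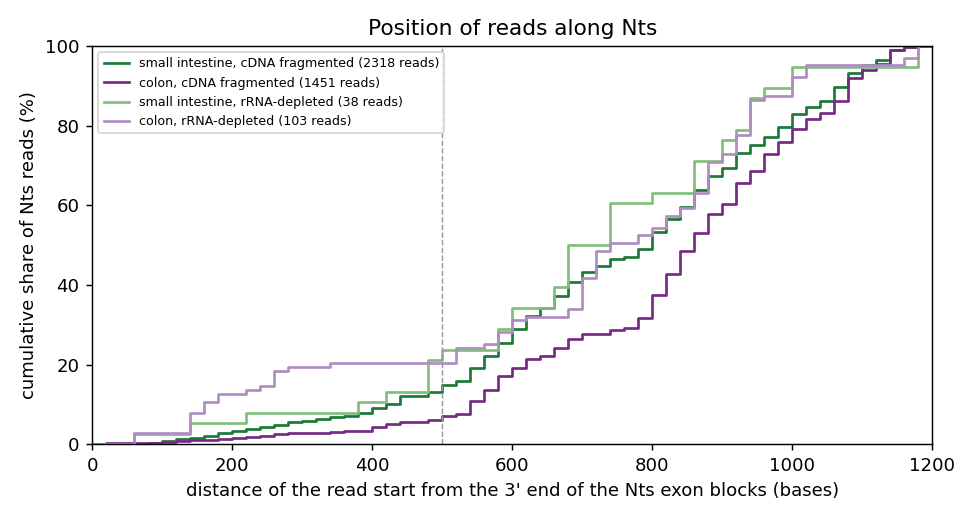
Cumulative share of Nts reads (y axis, percent) against the distance of the read start from the 3′ end of the exon blocks (x axis, bases) in the 4 libraries; the dashed line stands at 500 bases. The cDNA fragmented colon library has the lowest share, 7.03%, within that distance.

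Sst (chr16:23889667-23890930, 2 exon blocks) encodes somatostatin, the inhibitory hormone of D cells that is also made by enteric neurons, and its tissue difference depended on the scaling. It had 520 and 662 reads in the cDNA fragmented pair, 38.6 RPKM (35.4 to 42.1) in small intestine against 44.6 (41.2 to 48.1) in colon, 1.15-fold higher in colon (1.03 to 1.30). The rRNA-depleted pair had 27 and 70 reads, 22.1 (14.6 to 32.2) and 33.6 RPKM (26.2 to 42.4), 1.52-fold with an interval from 0.961 to 2.46. The log2 ratio of small intestine to colon in the cDNA fragmented pair, -0.21, became -1.19 (-1.36 to -1.02) under scaling to the epithelial list, -0.14 under that scaling without Krt20 and 0.15 under median-of-ratios scaling, and that of the rRNA-depleted pair, -0.60, became 0.14 by start points.

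Chga (chr12:103793179-103803237, 8 exon blocks), the granule protein used as a general marker of enteroendocrine cells, was higher in colon in both pairs when all reads were counted. It had 154 and 307 reads in the cDNA fragmented pair, 3.64 RPKM (3.09 to 4.26) against 6.58 (5.86 to 7.36), 1.81-fold (1.48 to 2.21). The rRNA-depleted pair held 126 and 446 reads, 32.9 RPKM (27.4 to 39.2) against 68.1 (62.0 to 74.8), 2.07-fold (1.70 to 2.54). By start points the log2 ratio of small intestine to colon in the rRNA-depleted pair moved from -1.05 to -0.38, with an interval from -0.80 to 0.03 that includes equal levels. That of the cDNA fragmented pair, -0.85, became -1.83 under scaling to the epithelial list, or -0.78 without Krt20. In the cDNA fragmented pair 69.5% of the Chga reads of small intestine (61.8% to 76.2%) and 37.5% of those of colon (32.2% to 43.0%) lay in the last 500 of 1882 exonic bases, where the median over genes of 1400 to 2500 bases was 34.0% and 34.2% and the 95th percentile in small intestine 69.49%, and in these bases alone the log2 ratio was 0.04 (-0.36 to 0.43). The shares in the rRNA-depleted pair were 23.8% (17.2% to 32.0%) and 22.2% (18.6% to 26.3%), against medians of 24.3% and 22.5% over genes of that length.

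Between protocols the members moved in opposite directions. Per kilobase and 1000000 reads, Chga was 9.04 times (7.08 to 11.5) as high in the rRNA-depleted as in the cDNA fragmented library of small intestine and 10.4 times (8.94 to 12.0) in colon, and Insl5 was 7.37 times (6.35 to 8.56) in colon. Sct was 0.200 times (0.129 to 0.297) as high in small intestine and 0.135 times (0.103 to 0.174) in colon, Gip 0.161 times (0.0949 to 0.255) in small intestine, Gcg 0.204 times (0.143 to 0.284) and 0.495 times (0.445 to 0.549), and Nts 0.181 times (0.128 to 0.249) and 0.506 times (0.410 to 0.618). Over genes with at least 10 reads in both libraries of a tissue, the median ratio was 1.51 in small intestine (10289 genes) and 1.61 in colon (12104 genes). This cut leaves out genes with few reads in the shallower rRNA-depleted libraries. The order of the hormones within a tissue therefore depended on the protocol. In the cDNA fragmented small intestine library the order was Sct, Nts, Gip, Gcg, Sst, Ghrl, Pyy, Cck and Chga, in which Nts and Gip, Gip and Gcg, and Ghrl and Pyy had overlapping intervals and Insl5 had no read. In the rRNA-depleted small intestine library it was Chga, Sct, Sst, Gcg, Nts, Gip, Cck, Ghrl, Pyy and Insl5, and every neighbouring pair overlapped. In colon it was Sct, Gcg, Pyy, Nts, Sst, Insl5, Chga, Cck and Ghrl in the cDNA fragmented library, in which Nts and Sst overlapped and Gip had no read. In the rRNA-depleted colon library it was Insl5, Gcg, Pyy, Chga, Sct, Sst, Nts and Cck, in which Gcg and Pyy, Sct and Sst, and Sst and Nts overlapped and Gip and Ghrl had no read. Counted per start at which a whole read lies inside an exon, the small intestine orders changed. Gip (124 RPKM) then stood before Nts (98.8) in the cDNA fragmented library. In the rRNA-depleted one Gip (19.9) stood before Nts (17.9), and Ghrl (13.1) before Cck (11.5). The colon orders were the same on that scale.

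The other genes of the endocrine pathway were taken from lists (plot of list medians). Of 13 genes for prohormone processing and granules, 1 passed the 3-fold rule for colon in the cDNA fragmented pair, Chgb (chromogranin B, 12.8 against 49.2 RPKM, but 20.9 against 18.6 in the other pair), and 3 in the rRNA-depleted pair: the calcium-binding Scgn (1.74 and 9.58 RPKM), the amidating enzyme Pam (13.9 and 138) and the carboxypeptidase Cpd (29.1 and 101). None passed for small intestine in either pair. The convertase Pcsk1 had 7.92 and 8.93 RPKM in the cDNA fragmented pair and 5.86 and 7.999 in the rRNA-depleted pair, and the carboxypeptidase Cpe 9.88 and 21.9, then 8.69 and 21.3. Among the endocrine transcription factors described, Insm1 passed for colon in the cDNA fragmented pair (0.412 and 8.53 RPKM; 1.14 and 1.81 in the other) and Foxa2 in the rRNA-depleted pair (0.693 and 10.7; 0.481 and 1.91 in the other). Foxa1 had 2.27 and 6.86 RPKM in the cDNA fragmented pair and 5.09 and 12.3 in the rRNA-depleted pair. Neurog3, which sets the endocrine fate, had 16, 22, 1 and 2 reads in the order given above for Ghrl.

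Enterochromaffin cells make serotonin. Of the 4 genes of that list, Tph1, its rate-limiting enzyme, passed for colon in the cDNA fragmented pair (10.7 and 40.4 RPKM; 5.92 and 15.1 in the rRNA-depleted pair), and Tac1, the precursor of substance P, in the rRNA-depleted pair (0.9503 and 6.39). The decarboxylase Ddc had 83.3 and 44.2 RPKM, then 56.3 and 40.0, and the monoamine transporter Slc18a1 12.4 and 4.19, then 4.25 and 5.72.

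Of 14 other gut peptides, Penk (enkephalin), Grp (gastrin-releasing peptide), Ppy (pancreatic polypeptide) and Guca2a (guanylin) passed for colon in both pairs. Ppy had 0 reads in small intestine in both pairs and 650 and 7 in colon, 196-fold and, on so few reads, 1.37-fold against 3 reads. Grp had 3 and 98 reads in the cDNA fragmented pair and 0 and 17 in the other, the latter 3.32-fold against 3 reads. Guca2a, which is not a product of these cells alone, reached 16974 RPKM in the cDNA fragmented colon library. Gal passed for colon only in the cDNA fragmented pair (25.4 and 102 RPKM; 4.92 and 4.94 in the other) and Vip only in the rRNA-depleted pair (12.5 and 84.3; 29.7 and 38.8), and the difference between pairs was not tested. Npy passed for small intestine in the cDNA fragmented pair, with 101 and 18 reads.

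Of 22 receptors and breakdown enzymes of the members, Dpp4, the peptidase that inactivates GLP-1 and GIP, passed for small intestine in both pairs, with 364 against 6.98 RPKM and 127 against 16.6. The somatostatin receptor Sstr1 passed for colon in both pairs, with 0.402 against 4.65 RPKM and 2.29 against 23.6. Sort1, a sorting receptor that binds neurotensin, had 9.21 and 16.8 RPKM, then 42.4 and 116. Npy1r, Ppyr1 and Sstr2 passed for colon in the rRNA-depleted pair. Reads on Glp1r, Gipr, Sctr and Ghsr numbered at most 3 in any library. Of 12 sensors of nutrients and bile acids, the short-chain fatty acid receptor Ffar2 (4.19 against 24.0 RPKM, and 2.14 against 20.2) and the long-chain fatty acid receptor O3far1 (1.82 against 16.5, and 2.82 against 18.6) passed for colon in both pairs. The cation channel Trpm5 had 2.05 and 1.02 RPKM, then 3.70 and 3.87.

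**Figure D5:**
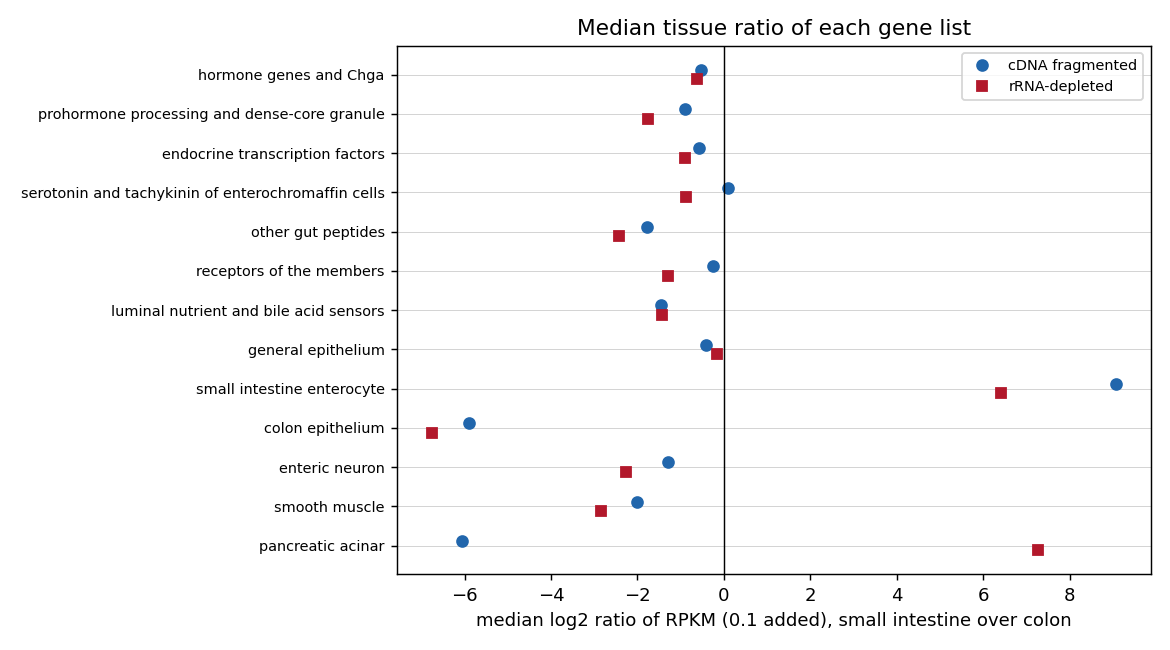
Median over the genes of each list present in a pair of the log2 ratio of RPKM in small intestine over colon (x axis; 0.1 RPKM added) in the cDNA fragmented (circles) and rRNA-depleted (squares) pairs. The hormone genes lie near 0, the enterocyte and colon epithelium lists far apart, and the pancreatic acinar list on opposite sides in the 2 protocols, at -6.06 and 7.27.

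The labelled tissues were checked on markers of other cell types. All 9 markers of small intestine enterocytes passed for small intestine in both pairs, and 7 and 8 of 8 markers of colon epithelium passed for colon. Of 7 proximal markers, 4 and 5 passed for small intestine (Gata4, Lct, Cyp2b10 and Adh6a in both), and so did Fabp6 and Osta of the 3 distal markers found. Against these, the proximal marker Slc40a1 passed for colon in the cDNA fragmented pair (4.30 and 22.3 RPKM; 49.7 and 110.1 in the other), and the distal marker Slc10a2 had 13.3 and 29.0 RPKM, then 49.2 and 102. Among 10 general epithelial genes Vil1 and Krt20 passed for small intestine and Krt19 for colon in both pairs, and their summed level was 9947 against 5325 RPKM in the cDNA fragmented pair and 4730 against 6479 in the rRNA-depleted pair. Krt20 alone gave 7525 and 2503 RPKM of the former, and the median log2 ratio of the list was -0.41 and -0.16. None of 13 enteric neuron genes passed in the cDNA fragmented pair (18.6 against 51.3 RPKM summed) and 4 passed for colon in the rRNA-depleted pair (15.1 against 72.3), with none at 0 in either colon library. Smooth muscle genes were higher in colon, with 5 and 4 of 6 past the rule. The part of these tissues' make-up in the differences of Vip, Penk, Sst and other genes that neurons also use was not tested.

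Pancreatic genes stood apart in 2 libraries, and since islets also make Gcg, Sst, Ppy and Pyy their values are given beside those. Of 21 acinar genes found, 13 passed for colon in the cDNA fragmented pair, such as Cela2a (0 and 5503 reads) and Pnlip (0 and 2229), whereas 15 passed for small intestine in the rRNA-depleted pair, where Cela2a had 1312 and 8 reads and Pnlip 1110 and 3. Spink3 passed for small intestine in the cDNA fragmented pair, and Sycn passed for colon in both pairs (48.5 against 210.1 RPKM in the rRNA-depleted pair). The summed acinar level was 3391, 2921, 4402 and 630 RPKM in the order used above, and 2957 RPKM of the first was Spink3. Of 8 islet genes, Ins1 and Ins2 had no read in any library, Slc30a8 had 0, 0, 4 and 2, Iapp 31, 121, 1 and 4, G6pc2 0, 15, 0 and 6, and Pdx1 1, 1, 15 and 0. The summed islet level was 2.02, 62.0, 7.46 and 7.01 RPKM, of which Ppy gave 54.6 in the cDNA fragmented colon library. The part of pancreatic RNA in the levels of Gcg, Sst, Ppy and Pyy was not tested.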

How the data were processed

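RNA of small intestine and colon had been sequenced on the SOLiD system in 4 libraries. The authors had matched 35 colors per read, with up to 3 mismatches, to RefSeq exons of mm9 and to exon-exon junctions, and had kept reads with 1 placement. The deposited match files hold the position, strand and mismatches of each read, and the deposited exon and junction tables hold coordinates, with no normalized values. The study's methods name SOLiD BioScope for matching, and whether it made the deposited files was not settled. The labels of the 2 Whole Transcriptome Analysis Kit libraries give rRNA depletion, which was followed. The study describes poly-A selection, more reads and a longer read for its directly fragmented RNA, so whether these deposited libraries are the ones it describes was not settled.

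Total reads per library in the deposited reports were 77504263 and 83302412 (cDNA fragmented, small intestine and colon) and 36419942 and 37466674 (rRNA-depleted), and uniquely placed reads were 22484041, 24798934, 2035386 and 3478387, and values from the shallower rRNA-depleted pair have wider intervals. Here, reads were counted on exon blocks, with 3 bases of tolerance, and RPKM was calculated from these counts. Placements on junctions (0.754% to 0.822% of reads) were left out, as 86.1% to 90.2% of them had 3 mismatches and at most 0.0249% had none, against 34.0% to 43.0% of exon placements. They had been planned as part of the main counts and became the alternative. Reads across junctions are therefore mostly missing, which lowers genes of short exons such as Gip, Ghrl, Sct and Pyy.

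Ratios carry exact conditional intervals and levels exact Poisson intervals, both at 95%. Folds against 0 reads use 3 reads per library and leave out the counting error of the other library. Log2 ratios in list medians had 0.1 RPKM added. All 10 members are named, and of each other list the 3 genes with the most reads and those that passed the rule in both pairs in the same direction; further genes were named after their values had been seen. The members and lists were chosen with earlier results of these data known. Slc51b, Amy2b and Tagln were not matched. A result of the list of transcription factors is not reported here. Alternatives were up to 1 mismatch, start points, median-of-ratios scaling, scaling to the general epithelial list, junction placements, the last 500 exonic bases, the sense strand, a penalty of 0.1 RPKM, a 2-fold rule and at least 10 reads. Start points cannot exceed the number of positions on the exons, so they can compress differences of short genes with many reads. Levels per start at which a whole read lies inside an exon, the epithelial scaling without Krt20 and the limma fit with protocol as block (1 RPKM added, or 0.1, with a moderated or each gene's own error), which tests the tissue effect on genes present in at least 1 library with Benjamini-Hochberg adjustment, were added after the data had been seen. The rule and the intervals were run on simulated Poisson counts and the fit on simulated normal errors. These hold neither reads copied during amplification nor tissue differences that depend on protocol, so they cannot test for either. Python 3.11.15, numpy 2.4.6, pandas 2.3.3, scipy 1.17.1, pysam 0.24.0, limma 3.58.1 in R 4.3.3 and samtools 1.23.1 were used.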

Additional observations from a re-analysis of the deposited data

Results flagged for a closer look

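Nts differed in direction between the protocols, with a log2 ratio of small intestine to colon of 0.82 in the cDNA fragmented pair and -0.67 in the rRNA-depleted pair. Under scaling to the epithelial list both were below 0, at -0.16 and -0.37, but with Krt20 left out of that list they were 0.89 and -0.18. The interval of the rRNA-depleted pair included 0 under 5 of the alternatives. Each pair had 1 library per tissue and the difference was not tested.

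Ghrl had 4 antisense reads of 10 in the rRNA-depleted small intestine library, at 3 start points, where 98.4% of reads of all genes were sense. Reads on the other strand of the gene enter no comparison made on the sense strand.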

How the results depend on the processing

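The members past the 3-fold rule numbered 2 for small intestine and 2 for colon in the cDNA fragmented pair, and 2 and 3 in the rRNA-depleted pair. For colon in the cDNA fragmented pair the number became 4 (Gcg, Sct, Pyy and Insl5) under scaling to the general epithelial list and under the 2-fold rule, where 13.5% and 7.97% of all genes were called for colon, against 3.21%. With Krt20 left out of that list, a setting added after the data had been seen, it was 2, with 3.02% of all genes. In the other settings run on the 3-fold rule it stayed within 1.5 times, and Gip, Ghrl, Pyy and Insl5 passed in both pairs in every setting. Cck passed in the cDNA fragmented pair with up to 1 mismatch, by start points, under median-of-ratios scaling, with a penalty of 0.1 RPKM and under the 2-fold rule. In that order 2.75%, 2.44%, 3.41%, 4.21% and 4.51% of all genes were called for small intestine, against 2.73%. In the rRNA-depleted pair Cck passed under the epithelial list without Krt20, with a penalty of 0.1 RPKM and under the 2-fold rule. There 5.74%, 7.06% and 6.98% of all genes were called for small intestine, against 3.7%. Chga passed for colon in that pair under the 2-fold rule, where 15.4% of all genes did. Scaling moved the log2 level of colon over small intestine by -0.36 and -0.29 (median of ratios, cDNA fragmented and rRNA-depleted) by 0.98 and -0.30 (epithelial list) and by -0.07 and -0.48 (that list without Krt20). Of the log2 ratios of single members with a counting interval, 92 values stayed within it and 28 moved outside it, and of the bounds against 3 reads 29 moved by less than 1 and 1 by more (Gip, 7.61 by start points). The sign turned for Sst (0.15, median of ratios), Nts (-0.16, epithelial list) and Chga (0.04, last 500 bases) in the cDNA fragmented pair, and by start points for Sct (0.38) and Sst (0.14) in the rRNA-depleted pair; the cause was not tested. Counted per start at which a whole read lies inside an exon, a setting added after the data had been seen, 20 of 36 levels moved outside their counting interval, for example Gip of the cDNA fragmented small intestine library from 84.8 to 124 RPKM. In the limma fit with protocol as block, 5 members had an adjusted p under 0.05, and 6 with 0.1 RPKM added, by the addition of Cck (adjusted p = 0.0251), while the share of all genes called rose to 3.72% for small intestine and 7.70% for colon. With each gene's own error on 1 degree of freedom, 0 members had an adjusted p under 0.05 and 2 an unadjusted one. The 2 were Pyy and Ghrl with 1 RPKM added, but Pyy and Insl5 with 0.1 RPKM added. The labels give no replicate numbers, so no block by replicate could be fitted. Depth limits the rRNA-depleted small intestine library most, in which Insl5 had 1 read, Pyy 8 and Ghrl 10.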
